A study of Mus musculus with 48 samples.

Results

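LINE-1 elements are the most abundant self-copying sequences of the mouse genome, and the 126 LINE-1 repeat types described here were taken from 1554 repeat types in a 5′-end RNA-sequencing count table of mouse cells on their way from fibroblast to pluripotent cell. A type is one named group of related LINE-1 copies, for example L1Md_A, and every type whose name began with L1 or Lx was taken, with no regard to its values. All 126 are accounted for: 120 carried enough reads to enter the tests, 6 did not, and 1 of those 6 (L1M2a1) had no read in any library. The values are reads per 1000000 transcript reads (rpm), where the reads of a type are summed over all of its genomic copies and over both strands.

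The table held 48 libraries from 20 conditions, 8 sorted conditions with 3 libraries each and 12 others with 2 each. The doxycycline-inducible cassettes MKOS and OKMS each encode Myc, Klf4, Oct4 and Sox2 on 1 transcript, in the order of the letters of the name, with an mOrange reporter, and the OKMS cassette carries a short form of Klf4. Each cassette had been targeted together with a CAG-driven rtTA into an intron of Sp3 in TNG embryonic stem cells (ESCs), whose Nanog locus carries GFP, and embryonic fibroblasts (MKOS MEF and OKMS MEF) came from chimeric embryos on a 129 background made with those cells. Doxycycline and vitamin C were given to MEFs diluted with wild-type MEFs, and the Nanog-GFP reporter and the surface proteins E-cadherin (Ecad), CD44 and ICAM1 were used to sort cells.

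The sorted conditions were 2N-, 3N- and 3N+ Ecad+ cells of each cassette and 2N- and 3N- Ecad- cells of OKMS. In these names 2 stands for CD44- ICAM1-, 3 for CD44- ICAM1+, and N- or N+ for Nanog-GFP without or with signal. The labels give 10 or 15 days of doxycycline for the sort, and the study's text gives day 10. The unsorted conditions were wild-type (wt) MEF, MKOS MEF and OKMS MEF, iPSCs of each cassette kept without doxycycline in LIF medium (-dox) or in the inhibitor medium 2i, the parental TNG ESCs with each cassette, TNG ESCs, wild-type E14 ESCs, and D6, an iPSC line with a single transposon copy of MKOS. The -dox iPSCs and the TNG MKOS and TNG OKMS ESCs carry the same cassettes as the MKOS and OKMS MEFs, whereas wt MEF and E14 carry none. D6 is a single clone.

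A full-length LINE-1 copy carries its own promoter at its 5′ end and encodes an RNA-binding protein and an endonuclease with reverse transcriptase, with which its RNA is copied back into the genome. Most genomic copies are truncated at the 5′ end and cannot move. In the mouse, L1Md_A, L1Md_T and L1Md_Gf are the young types that hold the copies still able to move, L1Md_F types are older relatives, and L1_Mus, L1VL, L1_Mm, Lx and L1_Mur types are older still, while L1M names mark types that were already present in early mammals. Types with L1P names are grouped here with the L1M types under the name ancestral. Somatic cells hold young LINE-1 promoters under DNA methylation and histone H3 lysine 9 methylation, and early embryonic and pluripotent cells are known to transcribe them more.

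Each library held 1429717 to 14174725 transcript reads, and repeats took 14.2 to 33.1% of all reads. The labels do not say whether the libraries of a condition came from separate cultures, so p-values measure only the spread between these libraries. The fibroblast and pluripotency markers matched the labels: the summed level of 8 fibroblast genes was 3014 to 5277 rpm in MEF libraries and 6.21 to 11.4 rpm in ESC libraries, and that of 8 pluripotency genes was 2.74 to 15.4 rpm in MEF and 10800 to 18040 rpm in ESC libraries. Nanog-GFP- sorted libraries still held 70.1 to 947 rpm of the fibroblast sum and 3N+ libraries 95.4 to 589 rpm. Fewer cells of a kind and less RNA per cell cannot be told apart in such libraries. The first library of 3N+ MKOS stood apart, with the highest share of repeat reads (33.1%), and 4 libraries held the most ancestral LINE-1 reads of the 48 (MKOS MEF 2, TNG MKOS ESCs 2, TNG OKMS ESCs 1 and the 3N- Ecad- OKMS library 3), so results that rest on them are also given without them. Those 4 were picked after the values had been seen.

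LINE-1 reads together took 14091 to 23148 rpm, or 4.24 to 10.2% of all repeat reads. In rpm the total moved far less between cell states than L1Md_A and L1Md_F, the types with the widest range, did. The 6 MEF libraries held 14975 to 21491 rpm, the 18 Nanog-GFP- sorted libraries 14091 to 20547 rpm, the 6 libraries of 3N+ cells 17666 to 21003 rpm and the 8 ESC libraries 17720 to 23148 rpm, and each of these ranges overlapped the next. Summed SINE types, the short elements copied by LINE-1 proteins, ran from 13000 rpm in the lowest MEF library to 136800 rpm in the highest 3N+ library, and the MEF range (13000 to 25510 rpm) lay wholly under the ESC range (66620 to 111300 rpm). Summed IAP types, a family of endogenous retroviruses, were highest in Nanog-GFP- sorted cells (932 to 5623 rpm, against 258 to 602 in MEF and 312 to 537 in ESC libraries). LINE-1 as a whole showed neither of those patterns.

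**Figure D1:**
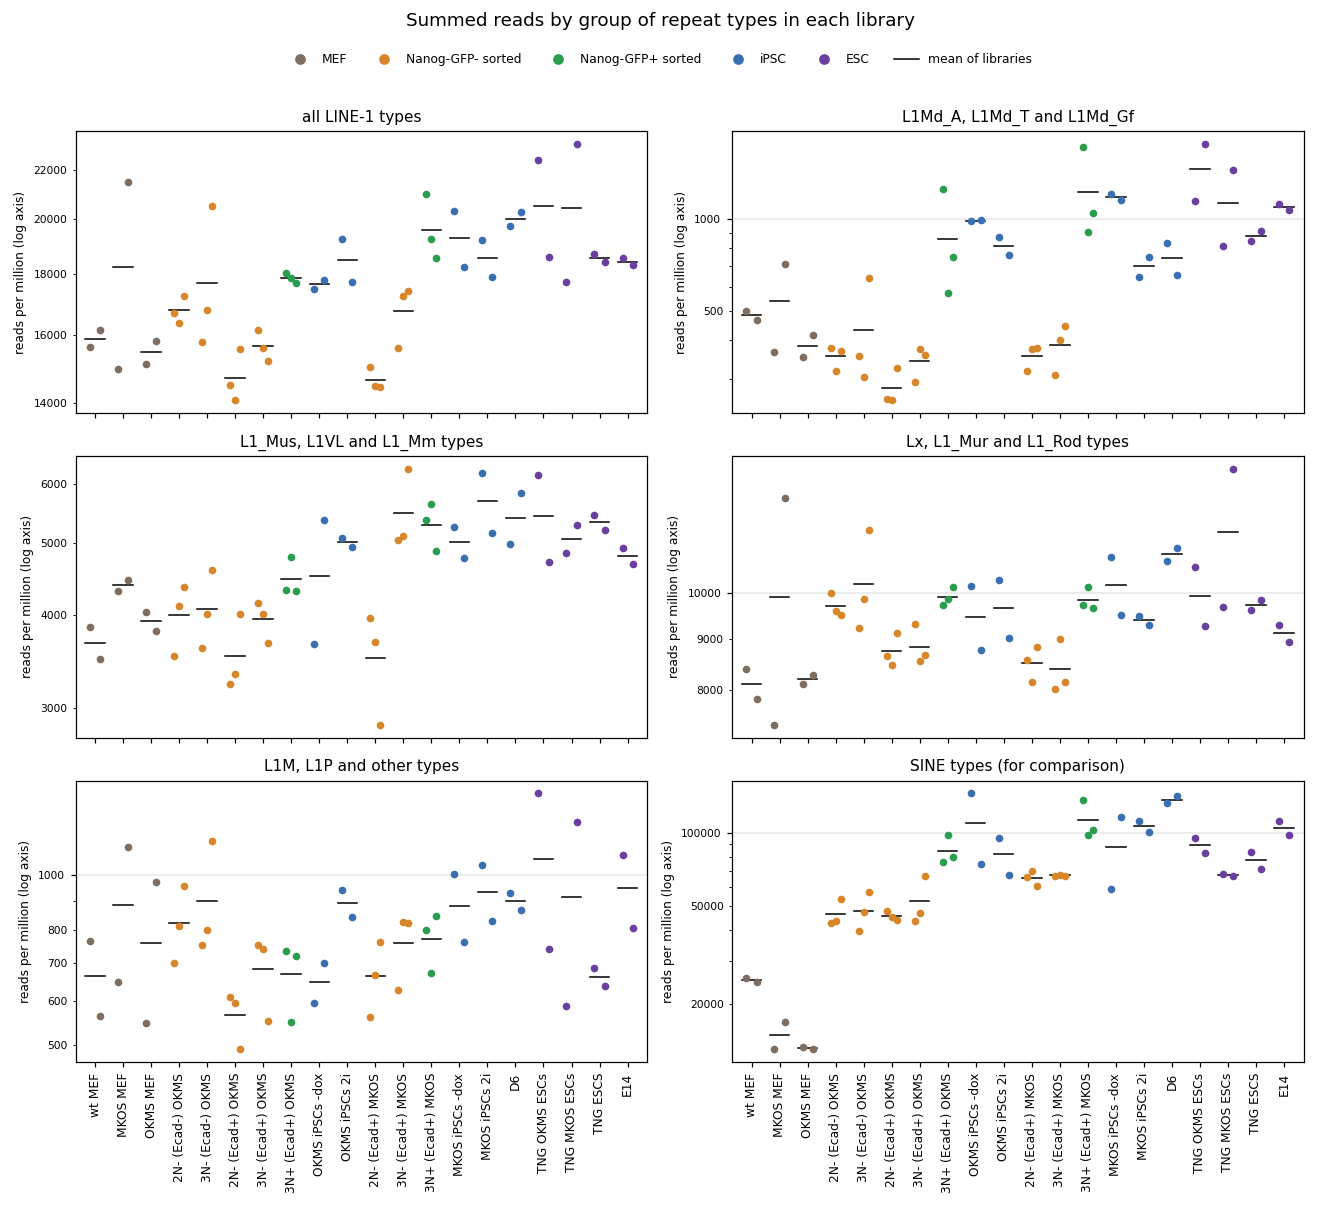
Level in rpm (log axis) in each of the 48 libraries by condition, for all LINE-1 types together, for L1Md_A, L1Md_T and L1Md_Gf, for the Mus, rodent and ancestral groups of LINE-1 types, and for SINE types. Points are libraries and lines are condition means. All LINE-1 together stayed between 14091 and 23148 rpm, while the 3 young types together ranged from 255 to 1756 rpm.

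A few types took most of the reads. Lx3B and L1_Mus2 alone gave 44.1% of all LINE-1 reads and the 10 most abundant types gave 82.1%. Lx3B averaged 4444 rpm over the 48 libraries and L1_Mus2 3275 rpm, followed by L1_Mur2 (1346), L1Md_F3 (1041), Lx2 (975), L1Md_F2 (951), L1_Mur3 (913), L1_Mus1 (690), L1Md_T (398) and L1_Mus3 (384). By group, the 25 Lx, L1_Mur and L1_Rod types held 53.7% of LINE-1 reads, the 8 L1_Mus, L1VL and L1_Mm types 26.3%, the 3 L1Md_F types 11.53%, the 87 ancestral types 4.45% and the 3 young L1Md types 4.03%.

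Types differ in genomic length, so their levels were also read per length, and on that scale abundance and age came apart. Reads of 5′ ends need not grow with length, so this scale is a description. Lx3B gave 1297 rpm per megabase (Mb) of its 3.43 Mb, L1_Mus2 205 rpm per Mb and L1Md_F3 70.1 rpm per Mb, whereas the median of the groups ran only from 8.36 rpm per Mb in the young L1Md types to 12.8 in the L1Md_F types. The young types were therefore not high per length on average over the 48 libraries. L1Md_A gave 2.11 rpm per Mb in the MKOS and OKMS MEF libraries and 20.5 in the TNG MKOS and TNG OKMS ESC libraries, and L1Md_F gave 2.00 and 21.5. Over the same cells L1Md_T went from 7.63 to 11.8 rpm per Mb, L1Md_F2 from 15.5 to 13.4 and Lx3B from 1085 to 1339. The reads of 1 type cannot be divided here into transcripts begun at its own promoters and reads of other transcripts that run through its copies.

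L1Md_A, the type with the widest range, differed 16.3-fold between its lowest and its highest condition mean, from 50.7 rpm in wt MEF to 825 rpm in TNG OKMS ESCs. L1Md_F followed with 13.6-fold (10.2 rpm in wt MEF to 139 rpm in TNG OKMS ESCs), then L1_Mm (8.56-fold) and the ancestral type L1MC4 (7.60-fold, 15.9 rpm in wt MEF to 121 rpm in 3N+ MKOS). L1Md_Gf spanned 4.64-fold and L1Md_T 3.89-fold. The 65 types with a mean of at least 10 rpm had a median range of 2.61-fold, and the abundant types lay under it, at 1.48-fold for Lx3B, 1.76-fold for L1_Mus2, 1.95-fold for L1Md_F2 and 2.36-fold for L1Md_F3. These ranges were read from the same libraries as the tests below and are a description.

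**Figure D2:**
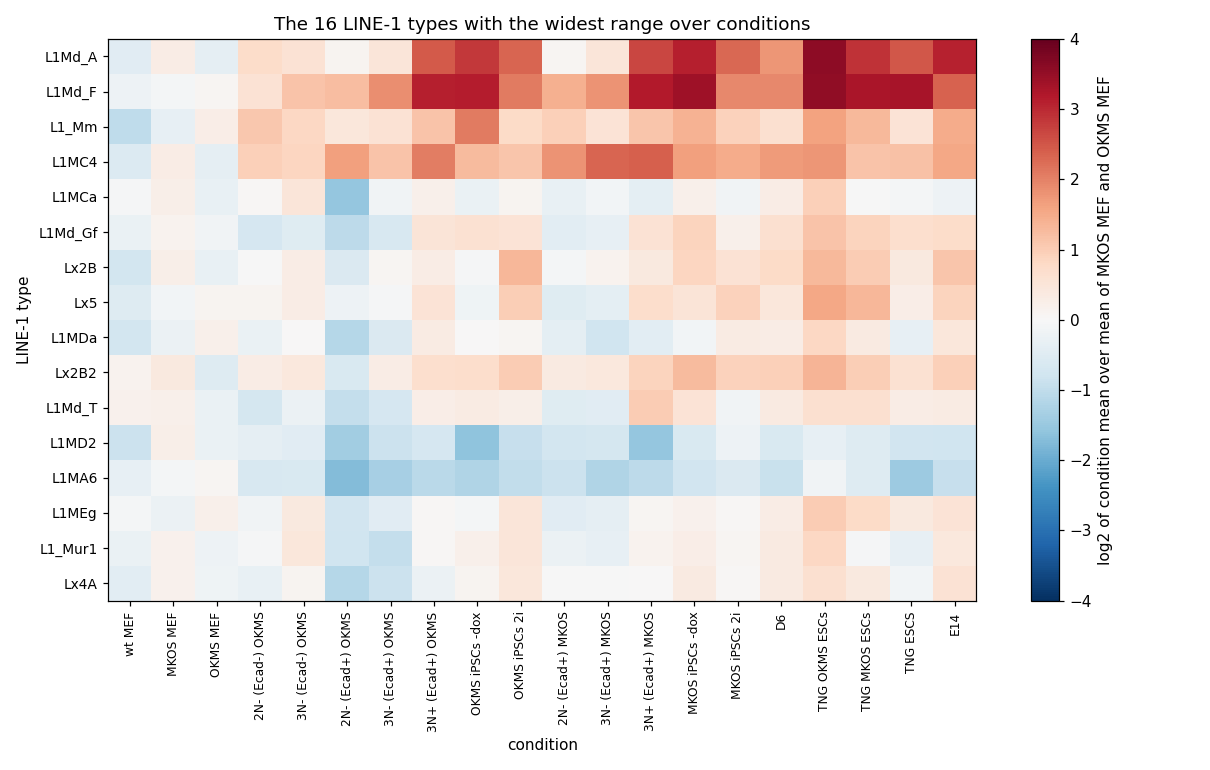
The 16 LINE-1 types with the widest range over condition means among those averaging at least 10 rpm (rows), in the 20 conditions (columns). Color gives log2 of the condition mean over the mean of MKOS MEF and OKMS MEF, on a scale from -4 to 4. L1Md_A goes from 0.49 in 3N- to 2.66 in 3N+ with MKOS and from 0.47 to 2.46 with OKMS, L1Md_T and L1Md_Gf go from under 0 to above 0 at the same step, and L1Md_F is already at 1.22 to 1.87 in Ecad+ Nanog-GFP- cells and lies lower in 2i (1.93 and 2.09) than in -dox iPSCs (3.38 and 3.13).

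Library by library, L1Md_A fell into a low and a high set of conditions with no library between them. The low set was all MEF and all Nanog-GFP- sorted libraries (24 libraries, 43.2 to 159 rpm), and the high set was 3N+ cells, iPSCs and ESCs (24 libraries, 226 to 1022 rpm). In MEFs the levels were 57.1 and 44.4 rpm in wt MEF, 61.0 and 108 in MKOS MEF and 43.2 and 63.2 in OKMS MEF. In the Ecad+ Nanog-GFP- cells they were 69.5, 75.3 and 74.5 rpm in 2N- MKOS, 83.1, 87.4 and 119 in 3N- MKOS, 70.9, 70.0 and 83.8 in 2N- OKMS, and 79.5, 91.7 and 115 in 3N- OKMS. The sorted Nanog-GFP- libraries thus overlapped the MEF range and in part lay above it, up to 159 rpm in an Ecad- library against 108 rpm in the highest MEF library. In the cells that had turned on Nanog-GFP the levels were 407, 436 and 463 rpm with MKOS and 588, 255 and 292 with OKMS.

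The order of the condition means of L1Md_A rose from wt MEF (50.7 ± 8.97, SD, n = 2) and OKMS MEF (53.2 ± 14.1, n = 2) through the Ecad+ 2N- cells of MKOS (73.1 ± 3.16, n = 3) and OKMS (74.9 ± 7.74, n = 3), MKOS MEF (84.6 ± 33.3, n = 2), the Ecad+ 3N- cells of OKMS (95.4 ± 17.98, n = 3) and MKOS (96.5 ± 19.69, n = 3) to the Ecad- OKMS cells (104 ± 48.6 in 3N- and 114 ± 18.7 in 2N-, n = 3 each). D6 came next (236 ± 15.0, n = 2), then the 2i iPSCs (336 ± 39.8 with MKOS and 345 ± 111 with OKMS, n = 2 each), 3N+ OKMS (378 ± 182, n = 3), TNG ESCs (389 ± 92.2, n = 2), 3N+ MKOS (435 ± 28.0, n = 3), OKMS -dox iPSCs (491 ± 27.2, n = 2), TNG MKOS ESCs (511 ± 201, n = 2), E14 (588 ± 111, n = 2), MKOS -dox iPSCs (593 ± 8.95, n = 2) and TNG OKMS ESCs (825 ± 278, n = 2). Neighbors in this order differed by less than the larger of their SDs, except at the steps from OKMS MEF to 2N- MKOS, from the Ecad- OKMS cells to D6, from D6 to the 2i iPSCs and from 3N+ MKOS to the OKMS -dox iPSCs.

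L1Md_F, an older and less abundant relative, shared this direction with less of a gap. Its 24 libraries of MEFs and Nanog-GFP- cells ran from 8.72 to 57.2 rpm and the other 24 from 36.8 to 139 rpm, so these sets overlapped. MEF libraries held 8.72 to 15.9 rpm, Ecad- OKMS libraries 16.5 to 36.8, Ecad+ Nanog-GFP- libraries 15.9 to 57.2, 3N+ libraries 83.2 to 128 and -dox iPSC libraries 102 to 135. The 2i iPSCs (36.8 to 53.2 rpm), D6 (40.7 and 47.95) and E14 (56.5 and 63.2) stood lower than the -dox iPSCs and the TNG ESC lines (95.7 to 139).

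The other 4 L1Md types held a different course. L1Md_T had 286 to 577 rpm in MEF libraries, 170 to 454 in Nanog-GFP- sorted libraries, 293 to 1281 in 3N+ libraries and 417 to 734 in ESC libraries, with its lowest median (242 rpm) in the Nanog-GFP- cells. L1Md_Gf had 14.1 to 29.0, 6.99 to 24.8, 21.7 to 46.5 and 29.2 to 62.4 rpm in the same order. L1Md_F2, the type with the most genomic sequence of the 6 at 74.1 Mb, had 968 to 1434 rpm in MEF and 802 to 1579 rpm in ESC libraries, and L1Md_F3 had 905 to 2779 and 834 to 1772 rpm. For L1Md_F2 and L1Md_F3 every stage overlapped every other.

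**Figure D3:**
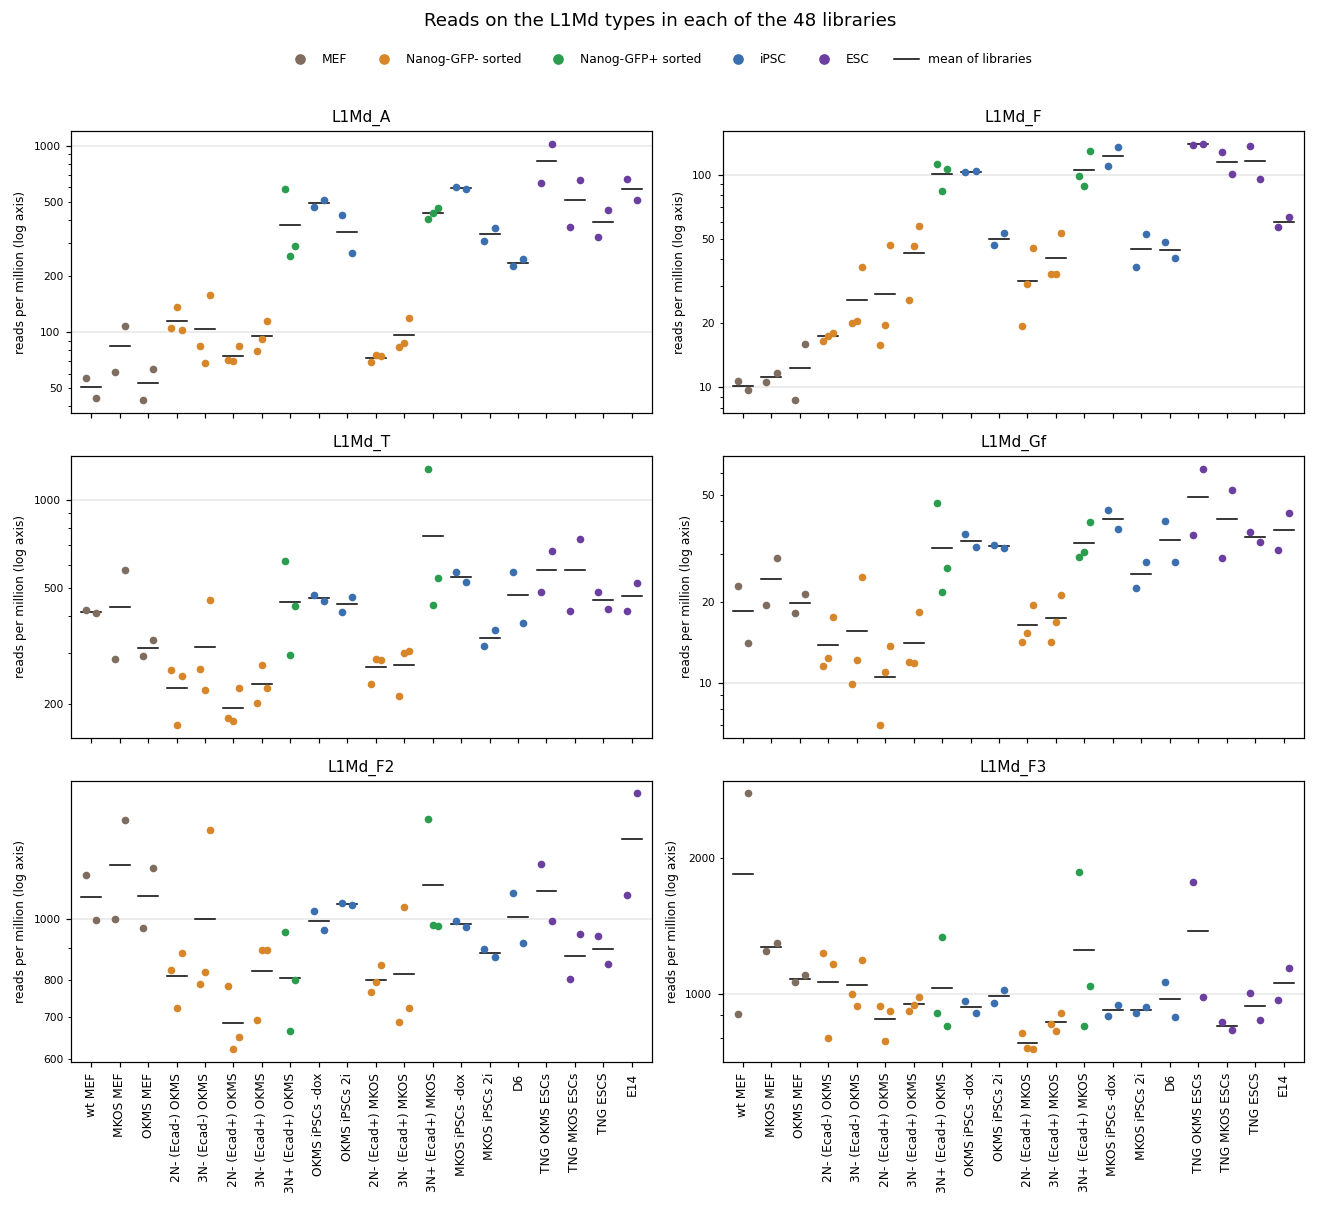
Level in rpm (log axis) of L1Md_A, L1Md_F, L1Md_T, L1Md_Gf, L1Md_F2 and L1Md_F3 in the 48 libraries by condition. Points are libraries and lines are condition means. L1Md_A lies at 43.2 to 159 rpm in every MEF and Nanog-GFP- library and at 226 to 1022 rpm in every other library, while L1Md_F2 overlaps between all stages.

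Because these types share the depth and scaling of a library, their ratio within it was also read. L1Md_A over L1Md_F2 was 0.0446 to 0.0754 in MEF libraries, 0.0831 to 0.188 in Nanog-GFP- sorted libraries, 0.282 to 0.617 in 3N+ libraries and 0.322 to 1.03 in ESC libraries. The MEF, Nanog-GFP- and 3N+ ranges did not overlap, so on this scale the sorted Nanog-GFP- cells stood above all MEFs. With MKOS the denominator moved: from MKOS MEF to 2N- cells L1Md_F2 was lower (1216 to 801 rpm, log2 change -0.63, adjusted p = 0.029), while L1Md_A did not pass (84.6 to 73.1 rpm, -0.23, adjusted p = 0.64). The 3 young types together made up 2.34 to 3.32% of LINE-1 reads in MEF libraries, 1.77 to 3.10% in Nanog-GFP- sorted libraries, 3.19 to 8.17% in 3N+ libraries and 4.52 to 9.45% in ESC libraries.

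The first comparison asked how fibroblasts and the pluripotent cells they were made from differ, between MKOS and OKMS MEF (4 libraries) and TNG MKOS and TNG OKMS ESCs (4 libraries). L1Md_A and L1Md_F rose most: the mean of the MEF libraries was 68.9 rpm for L1Md_A and 11.8 rpm for L1Md_F, and that of the ESC libraries 668 and 126 rpm. L1Md_A held 61.0, 108, 43.2 and 63.2 rpm in the MEF libraries and 369, 654, 629 and 1022 rpm in the ESC libraries, with no overlap. It was higher in ESCs by 3.27 on the log2 scale (SE 0.26, adjusted p = 1.7e-13, edgeR quasi-likelihood test with Benjamini-Hochberg adjustment over all 16729 features tested, as for every adjusted p here). L1Md_F held 10.7, 11.7, 8.72 and 15.9 rpm in the MEF libraries and 127, 101, 138 and 139 rpm in the ESC libraries, again apart. It was higher by 3.41 (SE 0.31, adjusted p = 4.0e-12). The share of all features without overlap is not given, here or below, so groups that lay apart are a description only. The young types L1Md_Gf (log2 change 1.01, SE 0.29, adjusted p = 0.0032) and L1Md_T (0.64, SE 0.25, adjusted p = 0.035) were higher as well, so all 3 young types were called. The call of L1Md_Gf was lost without TNG OKMS ESCs 2 (0.66, adjusted p = 0.072), and that of L1Md_T without any 1 of 5 libraries (TNG MKOS ESCs 2, TNG OKMS ESCs 2, MKOS MEF 1, OKMS MEF 1 or OKMS MEF 2, log2 change 0.40 to 0.64). L1Md_T was called in only 7 of 16 other fits, with log2 changes from 0.16 to 0.88. Markers of other cells were lower in the same comparison for 2 of 4 primitive endoderm genes (summed level 23.6 to 29.1 rpm in MEF and 0 to 3.52 rpm in ESC libraries) and 1 of 4 macrophage genes, and their part in the result was not tested.

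Of the 120 LINE-1 types tested, 18 were higher in ESCs and 2 lower, where 25.6% of all features tested were called higher and 23.5% lower. Both shares of LINE-1 types, 15.0 and 1.67%, lay under those of all features. The other repeat types were called higher in 22.9% and lower in 4.09%. The median log2 change was 0.28 over the LINE-1 types, 0.04 over all features and 0.54 over the other repeat types. Those called were all 3 young types, 1 of 3 L1Md_F types, 6 of 8 L1_Mus, L1VL and L1_Mm types, 4 of 25 Lx and L1_Mur types and 4 higher and 2 lower of 81 ancestral types tested. L1Md_F2 (log2 change -0.25, adjusted p = 0.23) and L1Md_F3 (-0.16, adjusted p = 0.58) did not pass.

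The count of types depended on what the reads were scaled to. Relative to repeat reads in place of transcript reads, 6 types were higher and 14 lower, and with DESeq2's size factors 11 were higher and 6 lower. Scaling to repeat reads moved the median of all features from 0.04 to -0.38, so a call on that scale is relative to repeats that were themselves higher in ESCs. L1Md_A (2.80) and L1Md_F (2.95) were higher on that scale too, L1Md_F2 (-0.73) and L1Md_F3 (-0.67) were then called lower, and L1Md_Gf and L1Md_T were not called.

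Among the older types, L1MC4, an ancestral type of 1.29 Mb, had 18.02 and 38.3 rpm in MKOS MEF, 16.5 and 19.8 in OKMS MEF, 53.3 and 48.4 in TNG MKOS ESCs and 72.6 and 86.6 in TNG OKMS ESCs. The MEF and ESC libraries did not overlap, and the type was higher by 1.50 (SE 0.25, adjusted p = 2.9e-06). L1_Mur2 had 812, 1384, 729 and 697 rpm in MEF libraries and 1832, 1468, 1409 and 1472 rpm in ESC libraries, where the second MKOS MEF library came close to the ESCs (log2 change 0.80, SE 0.16, adjusted p = 7.0e-05). L1_Mus1 was higher by 1.41 (SE 0.20, adjusted p = 1.1e-07), but its ESC libraries were of 2 kinds, with 688 and 659 rpm in one library of each line and 1666 and 1698 rpm in the other.

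The same libraries, TNG MKOS ESCs 2 and TNG OKMS ESCs 1, also held most of several other older types. Lx5, singled out after its values were seen, had 206 and 209 rpm in the other ESC libraries, within the MEF range of 100 to 363 rpm, and 873 and 1032 rpm in those libraries. L1_Mus3 had 367 and 432 rpm against 810 and 728 rpm. Without the 4 libraries with the most ancestral reads, 9 types were higher and 2 lower. L1Md_A (3.49), L1Md_F (3.60), L1MC4 (1.97), L1Md_Gf (1.18), L1_Mur2 (1.16), L1_Mus1 (0.91) and L1Md_T (0.88) were among the 9, and Lx5 and L1_Mus3 were not. Whether RNA quality or genomic DNA had a part in those libraries was not tested.

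Both types that were lower in ESCs are small ancestral types with few reads. L1M6B had 1.33, 20.4, 3.16 and 10.8 rpm in the MEF libraries and at most 0.58 rpm in ESC libraries. L1ME4a had 6.45, 23.04, 7.61 and 31.7 rpm in MEFs and 4.81 to 9.45 rpm in ESCs, so its ranges overlapped, with a log2 change of -1.27 (SE 0.53, adjusted p = 0.044) that was called in 7 of 16 other fits. In both types the second library of each MEF line was the high one.

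**Figure D4:**
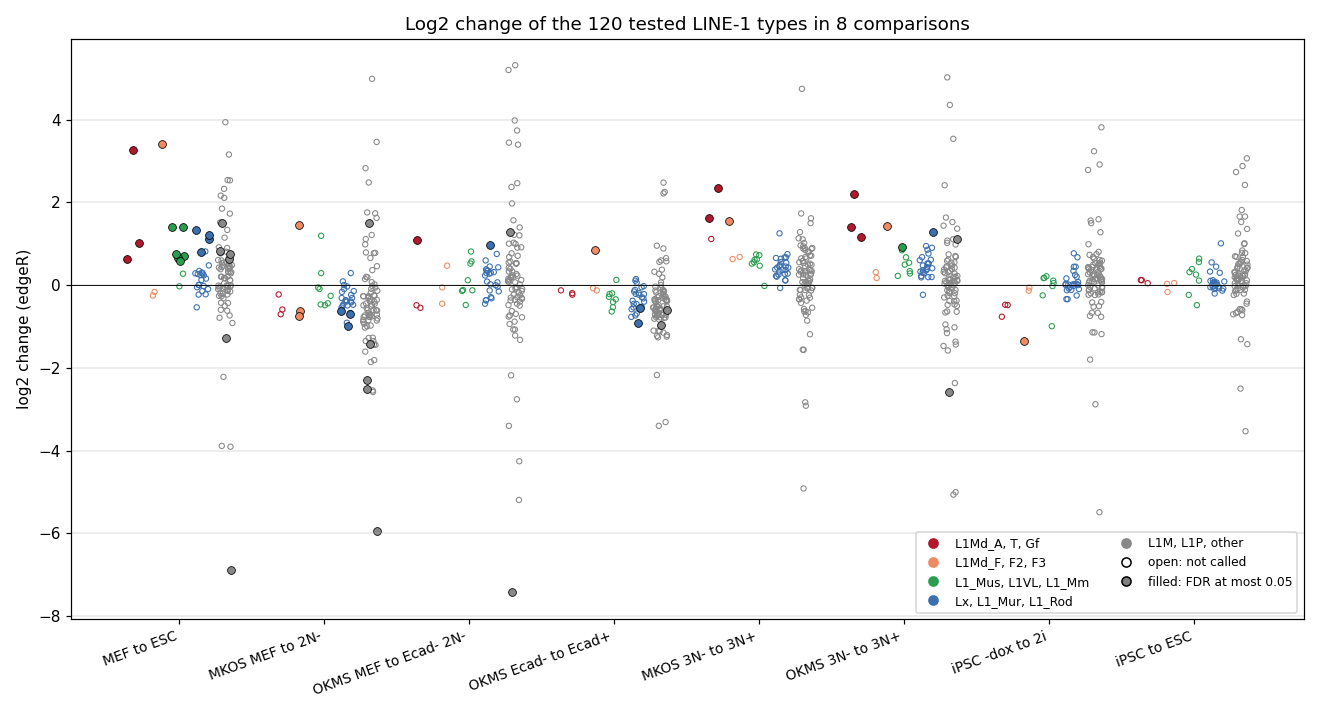
Fitted log2 change of each of the 120 LINE-1 types tested (points) on the vertical axis, in 8 comparisons along the horizontal axis, colored by group of types, with filled points for an adjusted p of at most 0.05 and open points otherwise. L1Md_A is at 3.27 from MEF to ESC, 2.35 from 3N- to 3N+ with MKOS and 2.20 with OKMS. The median over the 120 types was 0.28, 0.37 and 0.29 in the same comparisons.

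The step from MEFs to the first sorted population of each cassette asked what changed before Nanog-GFP came on. With MKOS, 3 libraries of 2N- (Ecad+) cells were set against 2 of MKOS MEF. Among LINE-1 types 2 were higher and 9 lower, where 14.4% of all features were higher and 11.3% lower. Over the LINE-1 types the median log2 change was -0.43, against 0 over all features and -0.08 over the other repeat types. The LINE-1 median was -0.09 without the 4 libraries with the most ancestral LINE-1 reads. The types that were higher were L1Md_F and L1MC4. L1Md_F went from 10.7 and 11.7 rpm to 19.4, 30.7 and 45.0 rpm, with no overlap and a wide spread among the sorted libraries (log2 change 1.46, SE 0.39, adjusted p = 0.0045). L1MC4 went from 18.02 and 38.3 rpm to 85.2, 79.0 and 75.5 rpm (1.50, SE 0.33, adjusted p = 0.00055). The call of L1Md_F was lost without the second MKOS MEF library (adjusted p = 0.052) and that of L1MC4 without the first (adjusted p = 0.057). L1Md_A held 69.5, 75.3 and 74.5 rpm, between the 61.0 and 108 rpm of the MEF libraries. Markers of other cells moved at this step. Of 4 macrophage genes 3 were higher (Tyrobp, Csf1r and Cd68), with a summed level of 2.22 and 3.69 rpm in the MEF and 15.7 to 110 rpm in the 2N- libraries, of 2 keratinocyte genes tested 1 was higher (Krt14, sum 0.222 and 1.23 rpm against 6.10 to 160 rpm), and of 4 primitive endoderm genes 1 was lower (Gata6). All 8 fibroblast genes were lower, with a sum of 359 to 761 rpm left in the 2N- libraries. The part of these markers in the LINE-1 changes was not tested.

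The 9 lower types included the abundant L1Md_F2 (from 998 and 1434 rpm to 765, 794 and 844 rpm, log2 change -0.63), Lx2 (-0.64), L1Md_F3 (-0.74) and L1_Mur3 (-0.999), and the small ancestral L1MA7 (-2.29), L1ME4a (-2.51) and L1M6B (-5.93). The second MKOS MEF library carried much of this. It held 2083 rpm of L1_Mur3 where the first held 847, and 20.4 rpm of L1M6B where the first held 1.33. Without that library 1 of 120 types was called, and without the 4 libraries with the most ancestral reads, which include it, 2 types were higher (L1MC4 and L1Md_F) and none lower. Scaled to repeat reads, 2 types were higher and 3 lower.

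With OKMS the first sorted cells were Ecad-, and 3 libraries of 2N- (Ecad-) cells were set against 2 of OKMS MEF. Here 3 types were higher and 1 lower, where 11.2% of all features were higher and 9.41% lower. L1Md_A went from 43.2 and 63.2 rpm to 105, 136 and 103 rpm (log2 change 1.08, SE 0.33, adjusted p = 0.014), so OKMS Ecad- cells lay above their own MEFs and still under every 3N+ library. L1_Mur2 went from 729 and 697 rpm to 1509, 1467 and 1317 rpm (0.97, SE 0.21, adjusted p = 0.00076) and L1MC4 from 16.5 and 19.8 rpm to 42.9, 60.8 and 31.3 rpm (1.27, SE 0.33, adjusted p = 0.0043). None of these 3 types overlapped between the groups, but they were picked by their calls in the same libraries. The share of all features that did not overlap is not given here, so this is a description only. The call of L1Md_A was lost without either OKMS MEF library (adjusted p = 0.15 and 0.056) or without 2N- (Ecad-) OKMS 2 (adjusted p = 0.055), that of L1MC4 without OKMS MEF 2 (adjusted p = 0.051), and that of L1_Mur2 when scaled to repeat reads (adjusted p = 0.054). The lower type was the ancestral L1MEa, with 4.27 and 1.95 rpm in MEFs and no read in the 3 sorted libraries, which makes it at least 14.8-fold lower against a floor of 3 reads over the group. That call was lost without 2N- (Ecad-) OKMS 1 or 3 or OKMS MEF 1 (adjusted p = 0.058, 0.067 and 0.065) and without the 7 sorted libraries that the study kept out of its averages (adjusted p = 0.070). No gene of the macrophage, keratinocyte, endothelial or primitive endoderm lists passed at this step by edgeR, with 1 endothelial and 1 primitive endoderm gene at an unadjusted p under 0.05. Their sums still moved. The endothelial sum was 2.41 and 2.75 rpm in MEF and 10.6 to 18.8 rpm in sorted libraries. The primitive endoderm sum was 23.6 and 24.3 rpm against 1.52 to 11.4 rpm. Of 8 fibroblast genes 7 were lower and 0 higher (sum 3014 and 3883 rpm against 575 to 628 rpm). Their part in the LINE-1 changes was not tested.

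Within OKMS, Ecad+ and Ecad- Nanog-GFP- cells were compared to follow the gain of epithelial E-cadherin (6 libraries each, 2N- and 3N- together). Only L1Md_F was higher in Ecad+ cells, and 4 types were lower, where 4.66% of all features were higher and 2.34% lower. The median log2 change was -0.38 over the LINE-1 types, 0 over all features and -0.14 over the other repeat types. By edgeR 28 of the 120 types had an unadjusted p under 0.05. Scaled to repeat reads the LINE-1 median was -0.19. L1Md_F had 16.5, 17.5, 18.1, 19.98, 20.6 and 36.8 rpm in Ecad- libraries and 15.9, 19.66, 46.6, 25.7, 45.9 and 57.2 rpm in Ecad+ libraries. The groups overlapped, and the log2 change was 0.86 (SE 0.24, adjusted p = 0.019). The lower types were L1MCa (-0.96), L1_Mur1 (-0.92), L1M5 (-0.61) and Lx (-0.55). Without the 3N- (Ecad-) library 3, which was the highest of the 6 Ecad- libraries in L1Md_F, L1_Mur1 and L1MCa, 1 type was called, and 2 or 3 were called without 2N- (Ecad-) 3 or without 2N- (Ecad+) 1, 2N- (Ecad+) 2 or 3N- (Ecad+) 3. The call of L1Md_F was lost without 3N- (Ecad-) 1 or 2, 2N- (Ecad+) 3 or 3N- (Ecad+) 3 (log2 change 0.49 to 0.79).

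The counts moved with the scaling. With DESeq2's size factors 1 type was higher and 8 lower, scaled to repeat reads 2 were higher and none lower, and without the 7 sorted libraries that the study kept out of its averages none was called by edgeR. L1Md_A had 68.3 to 159 rpm in Ecad- and 70.0 to 115 rpm in Ecad+ cells, and it was not called. Between the same libraries both keratinocyte genes tested were higher in Ecad+ cells (Krt14 and Krt5, summed level 0 to 1.09 rpm in Ecad- and 0.235 to 23.6 rpm in Ecad+), 1 of 2 endothelial genes tested was lower (Kdr), and 7 of 8 fibroblast genes were lower (sum 528 to 858 rpm against 70.1 to 280.1 rpm). Their part in the LINE-1 changes was not tested.

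The gain of ICAM1 from 2N- to 3N- (Ecad+ cells of both cassettes, 6 libraries each) gave 0 of 120 LINE-1 types by edgeR and 0 by DESeq2, with 6 types at an unadjusted p under 0.05, where 0.323% of all features were called higher and 0.00598% lower. L1Md_F (log2 change 0.41) and L1Md_A (0.30) were not called. Between the cassettes at the same stages, MKOS minus OKMS in Ecad+ Nanog-GFP- cells (6 libraries each), 1 type was higher with MKOS, where 6.44% of all features were higher and 4.97% lower. This was Lx4A, with 34.3, 35.6, 56.8, 30.9, 46.8 and 47.3 rpm in MKOS and 14.5, 20.3, 22.4, 26.4, 20.5 and 23.1 rpm in OKMS cells. No OKMS library reached the lowest MKOS library, and the log2 difference was 0.87 (SE 0.26, adjusted p = 0.024). The call of Lx4A was lost without any 1 of 5 libraries (2N- MKOS 3, 3N- MKOS 2 or 3, 2N- OKMS 1 or 3N- OKMS 2, with adjusted p from 0.055 to 0.081). Marker lists also differed between the cassettes. With MKOS 2 of 4 macrophage genes (Cd68 and Csf1r, summed level 15.7 to 141 rpm against 4.24 to 32.2 rpm with OKMS), 4 of 8 fibroblast genes (359 to 947 rpm against 70.1 to 280.1 rpm) and 1 of 2 keratinocyte genes tested (Krt14) were higher, and 2 of 4 primitive endoderm genes, Foxa2 and Sox17, were lower, with no read in any of the 6 MKOS libraries. Their part in the difference of Lx4A was not tested. A few of the libraries in these comparisons also serve in the next one, since the 3N- cells of each cassette are compared with the 2N- cells, the other cassette and the 3N+ cells.

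The gain of Nanog-GFP, from 3N- to 3N+ (3 libraries each for each cassette), was the step at which L1Md_A passed from its low to its high set of libraries. With MKOS it went from 83.1, 87.4 and 119 rpm to 407, 436 and 463 rpm, and with OKMS from 79.5, 91.7 and 115 rpm to 588, 255 and 292 rpm. The groups did not overlap with either cassette, and the log2 change was 2.35 with MKOS (SE 0.29, adjusted p = 3.0e-06) and 2.20 with OKMS (SE 0.29, adjusted p = 3.5e-06). The difference between these changes, OKMS minus MKOS, was -0.15 (SE 0.39, adjusted p = 1), which leaves room for a difference of either sign. No gene of the macrophage, endothelial, primitive endoderm or fibroblast lists passed at this step with either cassette by edgeR (at most 1 gene of each list at an unadjusted p under 0.05), and of the keratinocyte genes 1 was lower with OKMS (Krt14, with a summed list level of 0.235 to 23.6 rpm in 3N- and 0 to 0.252 rpm in 3N+ libraries). Pluripotency genes were higher for 6 of 8 with OKMS (sum 1653 to 5721 rpm against 15320 to 16670 rpm). With MKOS 0 of 8 passed (2 at an unadjusted p under 0.05). Their MKOS sum was nevertheless higher in 3N+ libraries, at 7622 to 9826 rpm in 3N- and 11680 to 13170 rpm in 3N+. None of the 8 passed the test of the difference between cassettes, with 5 at an unadjusted p under 0.05.

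L1Md_F went from 34.2, 34.2 and 53.1 rpm to 98.4, 88.3 and 128 rpm with MKOS and from 25.7, 45.9 and 57.2 rpm to 112, 83.2 and 107 rpm with OKMS. The groups lay apart with both cassettes (log2 change 1.56, SE 0.33, adjusted p = 0.0062 with MKOS and 1.44, SE 0.33, adjusted p = 0.0047 with OKMS). The call was lost in MKOS without either of the first 2 libraries of 3N- MKOS (adjusted p = 0.058 and 0.051), and in OKMS without the first 3N- OKMS library (adjusted p = 0.066) or when scaled to repeat reads (adjusted p = 0.085).

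L1Md_T, the young type with the most genomic sequence, went from 212, 298 and 304 rpm to 1281, 436 and 539 rpm with MKOS, where the first 3N+ library was far above the others. Its log2 change was 1.62 (SE 0.30, adjusted p = 0.0016), and 1.07 without that library, still called. With OKMS it went from 202, 273 and 227 rpm to 618, 293 and 434 rpm (1.16, SE 0.30, adjusted p = 0.012), and that call was lost without the first 3N+ OKMS library, without the first 3N- OKMS library or when scaled to repeat reads. L1Md_Gf was higher with OKMS (from 11.96, 11.9 and 18.4 rpm to 46.5, 21.7 and 26.6 rpm, 1.41, SE 0.34, adjusted p = 0.0078). With MKOS its change of 1.11 did not pass (adjusted p = 0.068). The MKOS libraries held 14.2, 16.8 and 21.2 rpm in 3N- and 29.4, 30.6 and 39.5 rpm in 3N+ cells. That these did not overlap is a description, since the share of all features without overlap is not given. The OKMS call of L1Md_Gf was lost without the first or second 3N- OKMS library, without the first 3N+ OKMS library (0.99) or when scaled to repeat reads (0.76).

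In all, 3 LINE-1 types were higher and none lower with MKOS, where 0.777% of all features were higher and 1.03% lower. With OKMS 7 were higher and 1 lower, where 3.54% of all features were higher and 3.07% lower. The other repeat types were called higher in 3.27% with MKOS and in 10.0% with OKMS, so that LINE-1 types, at 2.50 and 5.83%, were not above other repeats. The median log2 change of LINE-1 types was 0.37 with MKOS and 0.29 with OKMS, against -0.01 and -0.02 over all features. For the other repeat types it was 0.37 and 0.51. Of the 25 Lx, L1_Mur and L1_Rod types, 24 had a log2 change above 0 with each cassette. Beside the young types and L1Md_F, the OKMS calls were L1_Mur1 (1.28), L1MC4 (from 58.7, 44.5 and 49.4 rpm to 97.9, 96.5 and 90.4 rpm, 1.10) and L1VL1 (0.93) as higher and the ancestral L1ME2z as lower (from 4.73, 7.14 and 5.18 rpm to 0.13, 0 and 1.86 rpm, -2.59). The call of L1ME2z was lost in 9 of 14 other fits, among them those without any 1 of the 6 libraries other than the third 3N+ OKMS library (without which the log2 change was -5.39). Scaled to repeat reads, which moved the median of all features to -0.44 with MKOS and -0.62 with OKMS, the 3 MKOS calls were L1Md_A, L1Md_F and L1Md_T as before, and with OKMS 1 type was higher (L1Md_A, 1.56) and 4 lower. The number of OKMS calls was 2 without the first 3N- OKMS or the first 3N+ OKMS library and 3 without the second 3N- OKMS library. No type passed the test of the difference between the cassettes (edgeR, with 4 at an unadjusted p under 0.05 and 0 by DESeq2), where 0.0120% of all features passed in each direction.

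From 3N+ cells to -dox iPSCs no LINE-1 type was called. With MKOS the edgeR count was 0 of 120, with 5 at an unadjusted p under 0.05 and 0 by DESeq2, where 0.765% of all features were higher and 1.23% lower. With OKMS it was likewise 0, 5 and 0, where 0.317% of all features were called in each direction, and 1 type was called without the third 3N+ OKMS library. L1Md_A held 599 and 587 rpm in MKOS -dox iPSCs, above all 3 of the 3N+ MKOS libraries. It held 472 and 510 rpm in OKMS -dox iPSCs, within the range of the 3N+ OKMS libraries. Of 8 fibroblast genes 5 were lower in iPSCs and 0 higher with each cassette. Their summed level was 95.4 to 588.5 rpm in 3N+ MKOS and 6.74 to 7.45 rpm in MKOS -dox libraries. With OKMS it was 138.9 to 293.1 rpm in 3N+ and 8.02 to 29.3 rpm in -dox libraries. The part of this loss in the LINE-1 levels was not tested.

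The 2i medium blocks MEK and GSK3 signaling and is known to lower DNA methylation in mouse pluripotent cells. The iPSCs in 2i were compared with the -dox iPSCs (4 libraries each, both cassettes). Whether they were of the same lines is not in the labels. Of all features 1.79% were higher in 2i and 2.32% lower. Among LINE-1 types 1 was lower and none higher. This was L1Md_F, which went from 110, 135, 102 and 104 rpm to 36.8, 52.6, 46.9 and 53.2 rpm. The groups lay far apart, and the log2 change was -1.34 (SE 0.28, adjusted p = 0.0026). L1Md_A held 599, 587, 472 and 510 rpm in -dox and 308, 365, 423 and 266 rpm in 2i. The change of -0.76 (SE 0.24) did not pass (adjusted p = 0.062), and it passed in 6 of 16 other fits. The L1Md_A groups did not overlap, but the share of all features without overlap is not given. L1Md_T (-0.48) and L1Md_Gf (-0.48) were not called. Every 2i library thus held more reads of L1Md_A and L1Md_F than any MEF library and fewer than any -dox library. Only the change of L1Md_F was called.

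Between -dox iPSCs and the TNG MKOS and TNG OKMS ESCs (4 libraries each) no LINE-1 type was called by edgeR, with 5 at an unadjusted p under 0.05 and 0 by DESeq2, where 0.263% of all features were higher in ESCs and 1.18% lower. L1Md_A ranged from 472 to 599 rpm in the iPSCs and from 369 to 1022 rpm in the ESCs. Leaving out TNG MKOS ESCs 1 or TNG OKMS ESCs 2 gave 2 calls, and leaving out the first MKOS -dox library gave 1. The -dox libraries also serve in the comparisons with 3N+ and 2i, and the ESC libraries in the comparison with MEFs.

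Genes known to act on LINE-1, and L1td1, are given here from lists of 31 genes. At the step from 3N- to 3N+ with MKOS, where L1Md_A was higher, only the lists for DNA methylation and for H3K9 methylation held a gene that passed. L1td1, a gene derived from the RNA-binding protein of a LINE-1 and used as a pluripotency marker, had at most 0.51 rpm in the MEF libraries. It had 209, 166 and 251 rpm in 2N- MKOS and 199, 128 and 86.3 rpm in 2N- (Ecad-) OKMS cells, and 362 to 465 rpm in the TNG MKOS and TNG OKMS ESCs. It was thus present in Nanog-GFP- cells, in which L1Md_A held 68.3 to 159 rpm, with log2 changes of 9.12 (SE 0.64, adjusted p = 1.1e-13) from MKOS MEF to 2N- and 8.54 (SE 0.63, adjusted p = 5.6e-13) from OKMS MEF to Ecad- 2N- cells. In 2i it was lower by 1.24 on the log2 scale (-1.24, SE 0.28, adjusted p = 0.0057).

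The list for DNA methylation held Dnmt1 and Uhrf1, which copy methylation after replication, the de novo enzymes Dnmt3a and Dnmt3b with their cofactor Dnmt3l, the chromatin remodeler Hells and the oxidases Tet1 and Tet2. All 8 were higher in ESCs than in MEFs, where 25.6% of all features were higher and 23.5% lower. At the MKOS MEF to 2N- step 6 of 8 were higher and none lower (14.4 and 11.3% of all features), and at the OKMS MEF to Ecad- 2N- step likewise 6 and none (11.2 and 9.41%). Dnmt3l had at most 0.56 rpm in the MEF libraries, 0 to 7.34 rpm in 2N- (Ecad+) OKMS, 6.43 to 13.2 rpm in 3N- (Ecad+) OKMS and 91.6 to 143 rpm in 3N+ OKMS. At the step from 3N- to 3N+ 2 of 8 were higher with MKOS (Hells, 0.82, and Uhrf1, 0.72, where 0.777% of all features were higher) and 5 of 8 with OKMS (where 3.54% were higher, Dnmt3l, 3.72, Tet1, 1.67, Dnmt3a, 1.62, Hells, 1.08, and Uhrf1, 0.72). None of the 8 passed the test of the difference between the cassettes by edgeR, with 1 (Dnmt3l) at an unadjusted p under 0.05. In 2i 3 of 8 were lower, where 2.32% of all features were, and these were the de novo group, Dnmt3a by a log2 change of -2.92 (118 to 16.6 rpm), Dnmt3l by -2.39 and Dnmt3b by -1.90, in the same libraries in which L1Md_F was lower.

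Of 10 genes for H3K9 methylation and the HUSH complex, which silence young LINE-1 copies, 7 were higher and 1 lower in ESCs than in MEFs, where 25.6% of all features were higher and 23.5% lower. At the step from 3N- to 3N+ 1 was higher and 1 lower with MKOS, with 8 of 10 not passing (0.777 and 1.03% of all features), and 3 were higher and 1 lower with OKMS, with 6 of 10 not passing (3.54 and 3.07%). Trim28, the corepressor that brings Setdb1 to repeats, had 264 rpm in 3N- OKMS and 478 rpm in 3N+ OKMS cells on average (log2 change 1.06, SE 0.22, adjusted p = 0.0019), and 369 and 589 rpm in the MKOS cells (0.85, SE 0.22, adjusted p = 0.029). The methyltransferase Suv39h1 went the other way. It had 18.5, 16.7 and 10.7 rpm in 3N- MKOS and 4.63, 3.56 and 2.88 rpm in 3N+ MKOS (-1.91, SE 0.44, adjusted p = 0.013), and 22.0, 29.0 and 21.0 rpm in 3N- OKMS against 1.77, 4.20 and 9.30 rpm in 3N+ OKMS (-1.98, SE 0.44, adjusted p = 0.0036). In both cassettes the groups lay apart, and Suv39h1 was also the gene of this list that was lower in ESCs than in MEFs (-1.37).

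Among 8 restriction factors, proteins that hinder LINE-1 copying, 5 were higher and 3 lower in ESCs, where 25.6% of all features were higher and 23.5% lower. Tex19.1 had at most 0.44 rpm in the MEF libraries and 31.8 to 92.7 rpm in the TNG MKOS and TNG OKMS ESCs, and Apobec3 was higher by 2.13, while Trex1, which degrades cytosolic DNA, was lower (-1.99), as were Zc3hav1 (-1.94) and Samhd1 (-0.82). At the Nanog-GFP step 0 of 8 passed with MKOS by edgeR (2 at an unadjusted p under 0.05; Tex19.1 had a log2 change of 0.99, adjusted p = 0.39), and with OKMS 3 of 8 were higher (Tex19.1, 2.67, Mov10, 1.86, and Apobec3, 1.11), where 3.54% of all features were. None of the 8 passed the test of the difference between the cassettes, with 2 (Mov10 and Tex19.1) at an unadjusted p under 0.05, so the cassettes are not shown to differ in this list. Of the 3 piRNA pathway genes Mael and Piwil2 had no read in the MEF libraries and were at least 71.8-fold and 28.5-fold higher in ESCs, and Yy1, whose product binds the promoters of some LINE-1 types, was higher by 0.80.

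**Figure D5:**
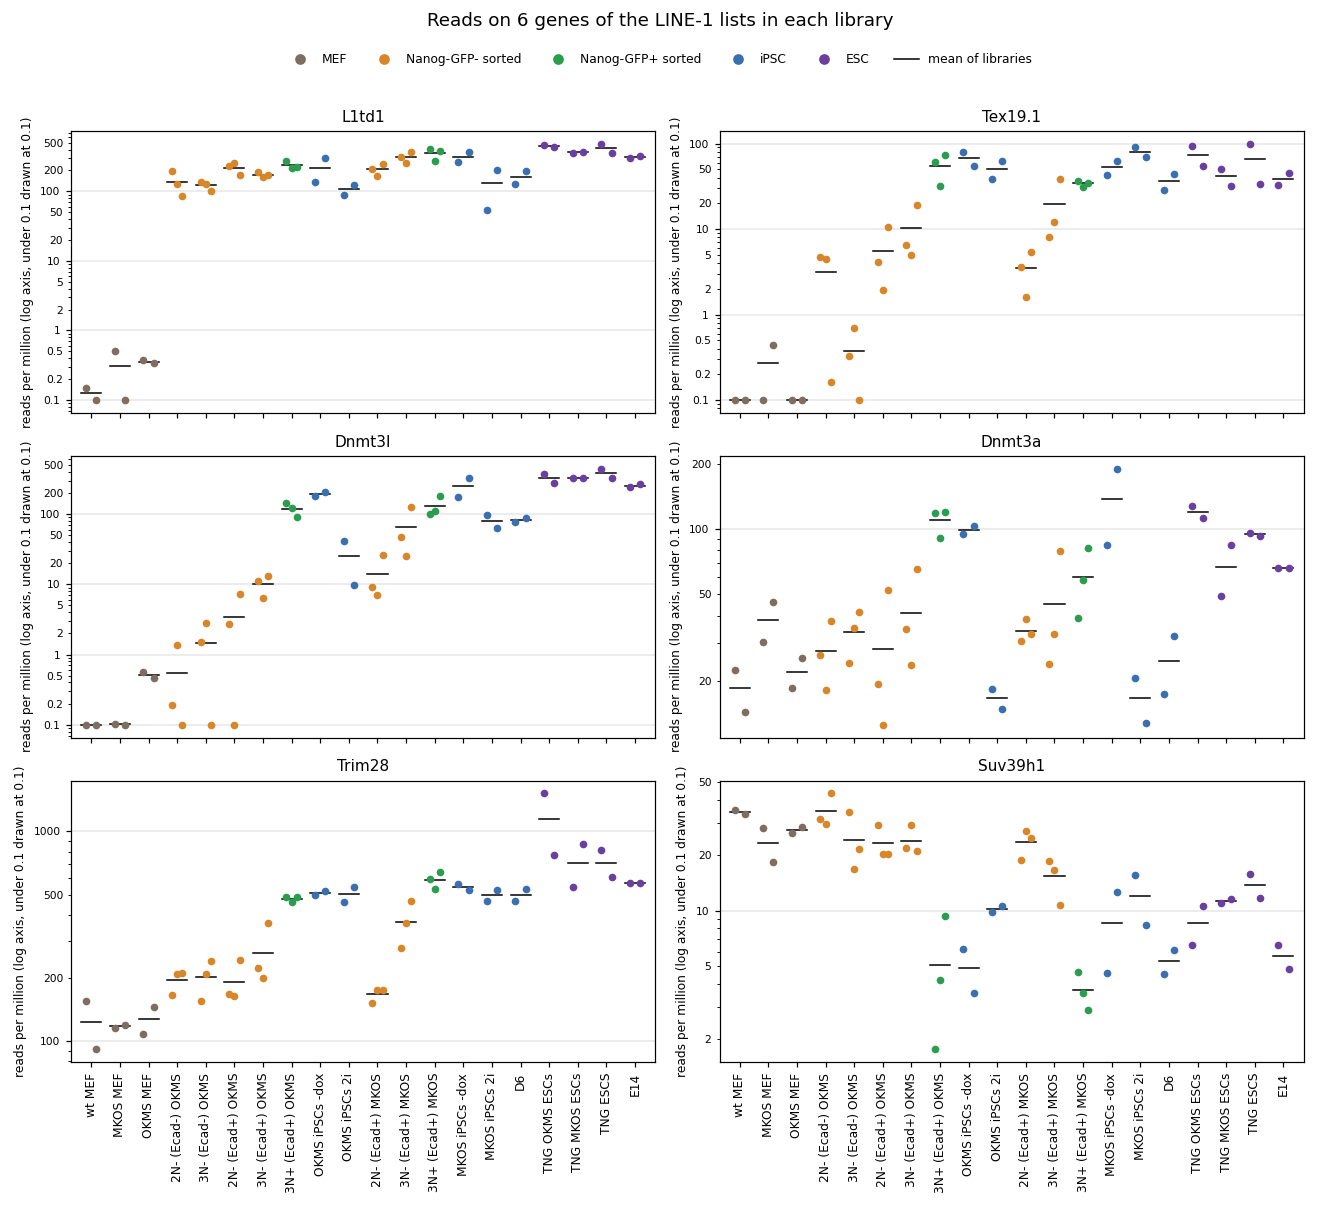
Level in rpm (log axis, values under 0.1 drawn at 0.1) of L1td1, Tex19.1, Dnmt3l, Dnmt3a, Trim28 and Suv39h1 in the 48 libraries by condition. Points are libraries and lines are condition means. L1td1 is at most 0.51 rpm in MEF libraries and at least 86.3 rpm in 2N- sorted libraries, and Suv39h1 is lower in 3N+ than in 3N- cells of both cassettes.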

How the data were processed

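The 5′ ends of RNA were sequenced from 48 libraries (STRT). The deposited values used here are counts, which the authors made as whole-number reads per transcript and per repeat type. Per the file headers, a read with several hits was given to the most 5′ exonic one, and repeats were summed by type over both strands. How reads matching several repeat types were divided is not given in the sources used here. The submitters' processing notes name Bowtie 0.12.7 and mm10, and the study's methods name mm9. No LINE-1 sequence was used here.

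The members, gene lists and tests were chosen with earlier results of these data known. Groups came from sample labels. Counts were divided by transcript reads for rpm. edgeR 4.0.16 in R 4.3.3 fitted 1 coefficient per condition over 48 libraries and 16729 features (15630 transcripts, 1099 repeat types, after edgeR's filter on low counts), with TMM factors and library sizes from transcripts, the quasi-likelihood test and Benjamini-Hochberg adjustment over all features, called at 0.05. Spike-ins and mitochondrial shares served as checks only. 13 comparisons were tested. Named were the 6 L1Md types, the 10 most abundant members and up to 3 called members a direction with the largest change. DESeq2 1.42.0, other scalings, no filter, a replicate block and left-out libraries were the alternatives. Replicate libraries of 1 condition differed beyond counting noise (chi-square per degree of freedom 13.6 to 66.1), so none was counted as a duplicate. The scripts were tested on simulated data. The simulation held only the libraries of MKOS 3N- and 3N+ and 12453 features, and only features above a minimum expected count were changed. Its shares are therefore not those of the fit over 48 libraries. In these simulated counts edgeR called 10 of 100 features changed 2-fold and 63 of 100 changed 4-fold. Of its 78 calls 5 were features left unchanged, and of 113 calls by DESeq2 21 were. A type that was not called is therefore not shown to be unchanged. With 3 reads as the floor, depth limits the precision of small types. Counting error alone is covered by that floor.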

Additional observations from a re-analysis of the deposited data

Results flagged for a closer look

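Pluripotent lines that entered no comparison also held L1Md_A and L1Md_F above every MEF library. L1Md_A averaged 588 rpm in E14 ESCs, 389 rpm in TNG ESCs and 236 rpm in D6 iPSCs (2 libraries each), against at most 108 rpm in a MEF library. L1Md_F averaged 59.9 rpm in E14, 116 rpm in TNG ESCs and 44.3 rpm in D6, against at most 15.9 rpm in a MEF library. D6 had the lowest L1Md_A mean of the pluripotent conditions, and E14 and D6 held less L1Md_F than the -dox iPSCs and the other ESC lines.

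For a few abundant older types the 2 libraries of each condition lay one way with MKOS and the other way with OKMS. The share of all features with such a split is not given here, and these differences were not tested. They are given as the log2 change with OKMS minus that with MKOS, from condition means. From -dox to 2i the difference was 0.24 for L1Md_F2 and 0.43 for Lx2. From -dox iPSCs to the ESCs of the same cassette it was 0.67 for L1Md_F3, where TNG OKMS ESCs 1 held 1772 rpm and TNG OKMS ESCs 2 held 984 rpm. TNG OKMS ESCs 1 was among the 4 libraries with the most ancestral LINE-1 reads.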

How the results depend on the processing

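No call of a named type turned direction. Over 37 results for named types and 556 other fits, 424 stayed called and 132 were no longer called. L1Md_A from MEF to ESC stayed called in 16 of 16 other fits (2.80 to 3.49), from 3N- to 3N+ in 14 of 14 with MKOS (1.94 to 2.53) and in 14 of 14 with OKMS (1.56 to 2.65), and L1Md_F from MEF to ESC in 16 of 16 (2.95 to 3.60) and in 2i in 16 of 16 (-1.51 to -1.21). L1Md_A from OKMS MEF to 2N- (Ecad-) stayed called in 10 of 13 and L1Md_F from Ecad- to Ecad+ in 14 of 20. Calls lost in most other fits were L1Md_T (called in 7 of 16, 0.16 to 0.88) and L1ME4a (7 of 16) from MEF to ESC, L1Md_F3 (5 of 13) and L1_Mur3 (6 of 13) from MKOS MEF to 2N-, L1M5 from Ecad- to Ecad+ (7 of 20) and L1ME2z from 3N- to 3N+ with OKMS (5 of 14).

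Counts of called types changed by more than 1.5 times as follows, and the cause was not tested except that the left-out libraries leave fewer samples. Without the 4 libraries with the most ancestral LINE-1 reads (added after seeing the data), the counts were 11 (MEF to ESC), 2 (MKOS MEF to 2N-), 1 (OKMS Ecad), 2 (between cassettes), 6 (MKOS 3N- to 3N+) and 2 (2i). Scaled to repeat reads they were 5 (MKOS MEF to 2N-), 2 (OKMS Ecad), 5 (OKMS 3N- to 3N+) and 2 (2i). Without the filter they were 8 (OKMS Ecad), 2 (between cassettes), 7 (MKOS 3N- to 3N+), 3 (2i) and 1 (iPSC to ESC). DESeq2's test gave 12 (OKMS Ecad), 2 (between cassettes), 6 (MKOS 3N- to 3N+) and 2 (2i), and its size factors in edgeR 9 (OKMS Ecad). Without the 7 sorted libraries the study kept out of its averages the counts were 0 (OKMS Ecad), 0 (between cassettes) and 2 (2i). Fitting only the conditions compared gave 3 (OKMS Ecad), 2 (between cassettes), 5 (MKOS 3N- to 3N+) and 4 (OKMS 3N- to 3N+). The other scalings and the DESeq2 test moved the MEF to ESC split as given above, to 12 higher and 4 lower in the last.

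Leaving out 1 library at a time gave 12 to 20 calls from MEF to ESC (12 without TNG MKOS ESCs 2, 13 without TNG OKMS ESCs 1 or MKOS MEF 1), 1 to 13 from MKOS MEF to 2N- (6, 4 and 7 without 2N- MKOS 1, 2 and 3, and 1 without MKOS MEF 2), 2 to 4 from OKMS MEF to 2N- (2 without either MEF library), 1 to 7 for OKMS Ecad (3 without 2N- Ecad+ 1 or 2, 2 without 3N- Ecad+ 3 or 2N- Ecad- 3, and 1 without 3N- Ecad- 3), 0 to 1 between cassettes, 2 to 3 from 3N- to 3N+ with MKOS and 2 to 9 with OKMS, 0 to 1 from 3N+ to iPSC with OKMS and 0 to 2 from iPSC to ESC.

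Same-numbered libraries were not taken as pairs in the main fits, under a strict rule that every pair had to correlate over 0.1. Over 84 pairs of sorted libraries their deviations from condition means correlated at 0.0911 on average and as low as -0.0537, with 28 pairs over 0.1. Over 168 pairs with different numbers the average was -0.0454, and 4 pairs were over 0.1. Deviations within a condition cancel, so this second average follows largely from the first and is no separate contrast. By the first average alone, same-numbered libraries were somewhat alike, and the rule does not show that they were unpaired. What they share was not tested. With the replicate number as a block the counts were 19 (MEF to ESC), 12 (MKOS MEF to 2N-), 4 and 8 (3N- to 3N+ with MKOS and OKMS) and 2 (2i, L1Md_A joining L1Md_F).

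Depth limits the small ancestral types, whose calls rest on few reads, and 2 or 3 libraries per condition limit every call.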
